A study of Mus musculus with 6 samples.

Results

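Sebaceous gland lipid genes were examined by RNA-seq in wound tissues of diabetic mice. The group was a fixed list of 8 genes, Mc5r, Awat2, Scd3, Elovl3, Elovl4, Soat1, Far2 and Fa2h. All 8 were among the 33184 genes of the deposited table, and all 8 passed the filter on low values, which kept 16005 genes. Every mouse was db/db, a line that lacks the leptin receptor signal and becomes obese and diabetic. Wounds were round, 6 mm wide and reached through the dermis. At dpi1 (1 day post-injury) they received peri-wound NC-siRNA, which serves as the control, or SFRP2-siRNA against the WNT modulator gene Sfrp2. Wound tissues were taken at dpi4 by the protocol, while the titles carry day 3. Each group had 3 libraries, numbered 1 to 3 in the titles, and each was treated as 1 animal, since the labels do not say whether libraries were pooled. The study lists its SFRP2 siRNA sequences under the numbers 1 to 3 as well, and whether each library received a different sequence is not stated. Ages and sexes are not given in the labels. A wound biopsy mixes glands with epidermis, fat, muscle and blood cells, so that a smaller amount of gland and less RNA per gland cell cannot be told apart here.

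Sebaceous glands sit beside the hair follicle and release sebum when their lipid-filled cells, the sebocytes, burst. Mouse sebum is rich in wax esters, sterol esters and triglycerides built from unusually long fatty acids. To make a wax ester, elongases lengthen a fatty acid, a desaturase adds a double bond, a reductase turns part of the pool into fatty alcohol, and a wax synthase joins alcohol and acid. In mice, melanocortin signalling through MC5R and the nuclear receptor PPARgamma are known to promote sebocyte lipid production. Several of these enzymes also work outside the gland. ELOVL4 and FA2H also make ceramide lipids of the epidermis, SOAT1 stores cholesterol in macrophages, and Elovl3 is also a gene of thermogenic fat.

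Depth was similar in both groups, with 42.9 to 47.1 M reads (M, megareads) per library as implied by the FPKM values. FPKM counts mapped fragments relative to gene length and library depth. In RNA the siRNA target went against its label. For SFRP2 protein the paper reports the opposite, less of it by staining in the siRNA-treated wounds. That staining was of dpi3, while the RNA is of dpi4 by the protocol. Sfrp2 had 11.6, 40.6 and 14.1 FPKM in NC 1, 2 and 3, and 50.6, 54.6 and 55.2 FPKM in SFRP2-siRNA 1, 2 and 3 (adjusted limma p 0.518, exact permutation p 0.1). The treated group is therefore called the SFRP2-siRNA-labelled libraries, and no direction below is read as that of a lower Sfrp2 level. SFRP2-siRNA 1 stood apart, with a correlation across genes of 0.889 to 0.930 with the other libraries, which had 0.951 to 0.976 among themselves. Its hair follicle genes summed to 30.8 FPKM against 2885 to 6044 FPKM in the other 5 libraries. NC 1 stood out by its mitochondrially encoded transcripts, which made up 35.8% of its summed FPKM against 11.8% to 22.2% elsewhere.

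No sebaceous gland gene had a difference between the groups that passed the test, and the libraries of the groups overlapped for each of them. With limma, 0 of the 8 genes had an adjusted p under 0.05, as was true of all 16005 genes tested (0.0% called). limma is a linear model that shares the estimate of spread over genes, and adjusted p-values control the false discovery rate over all genes. At an unadjusted p under 0.05 the count was also 0 of 8, beside 1533 genes or 9.58% of all genes (6.72% higher and 2.86% lower). By median-of-ratios scaling this split turned to 2.64% higher and 4.81% lower. Without SFRP2-siRNA 2 the count was 2 of 8, Soat1 and Awat2, both higher, beside 3.75% of all genes higher and 2.17% lower. In the fit of all libraries the count of 0 of 8 was the same with a log2 fold change beyond 1 in either direction as well, which 0.893% of all genes had. The NC and SFRP2-siRNA values overlapped for all 8 genes, whereas 17.8% of all genes had groups that did not overlap (13.9% higher and 3.92% lower). By median-of-ratios scaling 5.27% were higher and 7.87% lower, and the members still overlapped. In direction, 7 members had a log2 fold change above 0, beside 71.8% of all genes. The median log2 fold change of the members was 0.17, and that of all genes was 0.13. The highest upper bound of the 95% intervals was 0.95, for Elovl4, and the lowest lower bound was -0.62, also for Elovl4. No interval of this fit thus reached a doubling or its inverse on the log2(FPKM + 1) scale, while smaller changes in either direction remained within them. This does not extend to the alternative fits. Elovl4 was at 0.264 (SE 0.373) after rescaling to equal sums, against SE 0.329 here. The log2(FPKM + 1) scale understates changes of the low genes Scd3, Mc5r and Awat2.

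**Figure D1:**
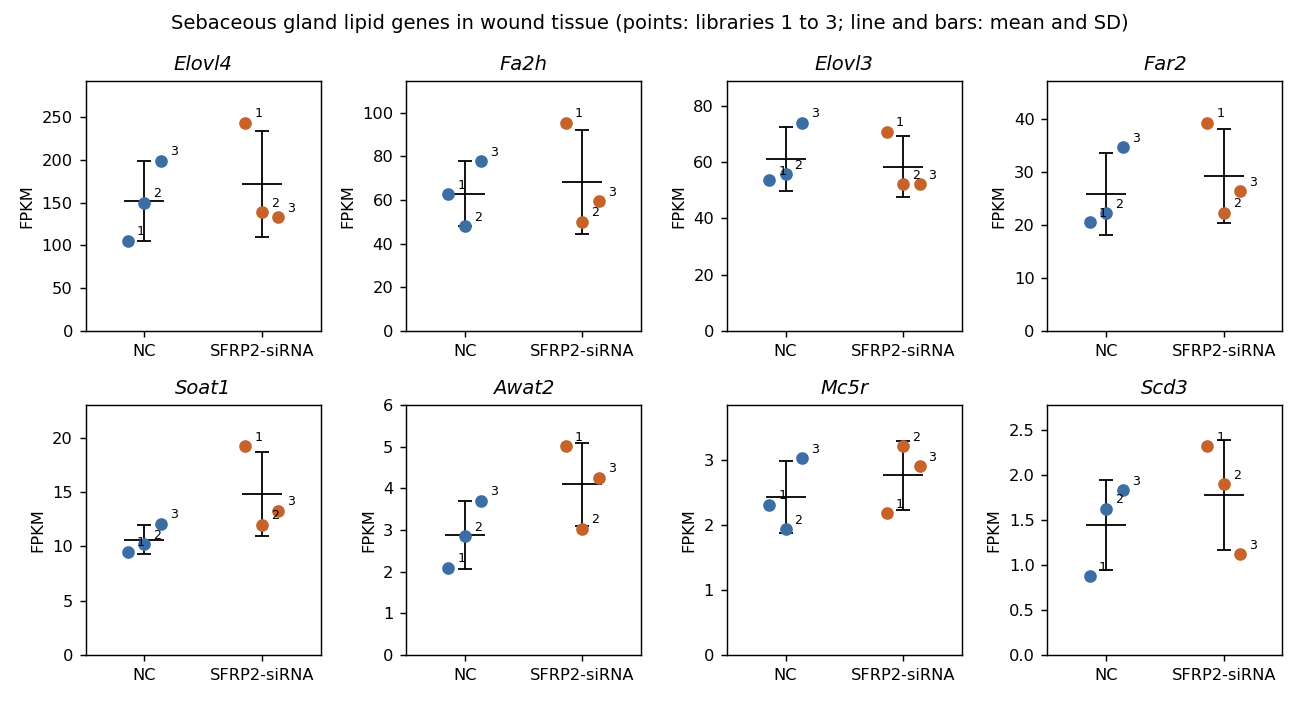
FPKM of each sebaceous gland gene (vertical axes, each from 0) in NC (blue) and in the SFRP2-siRNA-labelled libraries (orange). Points are libraries with their number, and the line and bars are the mean and SD of 3 libraries. In every panel the points of the groups overlap, and SFRP2-siRNA 1 is the highest orange point in 7 of them, all but Mc5r, where it is the lowest.

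Elongases were the most abundant members. Elovl4 (ENSMUSG00000032262), the elongase that makes fatty acids of very long chains, had 106, 149.9 and 199 FPKM in NC 1, 2 and 3. SFRP2-siRNA 1, 2 and 3 had 243, 139 and 133 FPKM. Only SFRP2-siRNA 1 lay above the NC range, and the other two lay inside it. On average NC had 151 ± 46.6 FPKM and the treated group 172 ± 62.1 FPKM (SD, n = 3 each). On the log2 scale the groups differed by 0.17 (SE 0.33). The adjusted limma p was 0.816 and the exact permutation p was 0.7. Without SFRP2-siRNA 1 the log2 fold change was -0.11, and without NC 1 it was -0.07, so the direction rested on single libraries.

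Elovl3 (ENSMUSG00000038754), an elongase of saturated and monounsaturated fatty acids whose loss in mice is known to disturb the water repulsion of the coat, had 53.4, 55.6 and 73.9 FPKM in NC. It had 70.7, 52.0 and 52.1 FPKM in the SFRP2-siRNA-labelled libraries. NC 3 and SFRP2-siRNA 1 were the pair of high libraries, and the remaining 4 lay between 52.0 and 55.6 FPKM. The log2 fold change was -0.07 (SE 0.20), the only one below 0 among the members. Its adjusted limma p was 0.888. The value was 0.03 after rescaling to equal sums, 0.08 without NC 3, 0.01 without SFRP2-siRNA 2 and 0.01 without SFRP2-siRNA 3. Without SFRP2-siRNA 1 it was -0.21, and the SFRP2-siRNA values then lay below all NC values. In that fit 7.97% of all genes were lower without overlap and 23.7% were higher without overlap.

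Fa2h (ENSMUSG00000033579), the hydroxylase that adds a 2-hydroxyl group to fatty acids of ceramides and glycolipids, had 62.7, 48.0 and 77.7 FPKM in NC. The SFRP2-siRNA-labelled libraries had 95.4, 50.2 and 59.5 FPKM. NC 2 was the lowest and SFRP2-siRNA 1 the highest of all 6. Its log2 fold change was 0.09 (SE 0.29), with an adjusted limma p of 0.887 and an exact permutation p of 0.9. The direction turned to -0.17 without SFRP2-siRNA 1 and to -0.07 with median-of-ratios scaling.

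Among the enzymes that build wax and sterol esters, Far2 (ENSMUSG00000030303), a reductase that turns fatty acyl-CoA into fatty alcohol, had 20.5, 22.3 and 34.6 FPKM in NC. It had 39.3, 22.3 and 26.3 FPKM in the SFRP2-siRNA-labelled libraries. SFRP2-siRNA 1 and NC 3 were again the highest libraries of their groups. The log2 fold change was 0.18 (SE 0.28) and the adjusted limma p was 0.771. Without SFRP2-siRNA 1 it was -0.05.

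Awat2 (ENSMUSG00000031220), the acyl-CoA wax alcohol acyltransferase that joins fatty alcohol and fatty acid, had 2.09, 2.85 and 3.71 FPKM in NC. It had 5.01, 3.03 and 4.25 FPKM in the SFRP2-siRNA-labelled libraries. SFRP2-siRNA 2 lay inside the NC range, and the other two lay above it. On average NC had 2.88 ± 0.81 FPKM and the treated group 4.10 ± 1.00 FPKM (SD, n = 3 each). Its log2 fold change of 0.39 (SE 0.21, 95% interval -0.11 to 0.90) did not pass, with an adjusted limma p of 0.536 and an exact permutation p of 0.2. It kept its sign in all 18 alternatives, from 0.09 to 0.55.

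Soat1 (ENSMUSG00000026600), which esterifies cholesterol with a fatty acid, had 9.52, 10.2 and 12.1 FPKM in NC. It had 19.2, 12.02 and 13.3 FPKM in the SFRP2-siRNA-labelled libraries. SFRP2-siRNA 2 lay just below the highest NC library, and this kept the groups from separating. The log2 fold change was 0.43 (SE 0.20, 95% interval -0.04 to 0.90), the largest among the members. Its unadjusted limma p was 0.068, the adjusted p was 0.523 and the exact permutation p was 0.2. It stayed above 0 in all 18 alternatives, from 0.21 to 0.56. Macrophage genes were also higher. All 12 had a log2 fold change above 0, beside 71.8% of all genes, with a median of 0.82. At an unadjusted limma p under 0.05, 9 of 12 were higher, beside 6.72% of all genes. By median-of-ratios scaling their median was 0.66, and 2.64% of all genes were higher at that p. Their summed level was 990 to 1719 FPKM in NC and 1934 to 2497 FPKM in the SFRP2-siRNA-labelled libraries. SOAT1 is also a macrophage enzyme, and the part of macrophages in the Soat1 value was not tested.

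Scd3 (ENSMUSG00000025202), a stearoyl-CoA desaturase that places a double bond in a saturated fatty acid, was the least abundant member. It had 0.87, 1.63 and 1.84 FPKM in NC and 2.32, 1.90 and 1.12 FPKM in the SFRP2-siRNA-labelled libraries, on 137 to 354 reads. Both groups covered a similar range, and the log2 fold change was 0.18 (SE 0.23) with an adjusted limma p of 0.711. It was 0.002 without NC 1, 0.043 without SFRP2-siRNA 1 and 0.37 without SFRP2-siRNA 3. Some of these reads may belong to its paralogs, since 229 of its 3499 stretches of 50 bases (6.54%) also occur in transcripts of other genes, of Scd1 and Scd2 among others. Such stretches made up at most 0.51% for each of the other 7 genes. How reads with several positions were counted is not stated, so the level of Scd3 is uncertain.

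Mc5r (ENSMUSG00000007480), the melanocortin receptor of the gland, had 2.32, 1.94 and 3.04 FPKM in NC. It had 2.18, 3.21 and 2.90 FPKM in the SFRP2-siRNA-labelled libraries. Unlike for the enzymes, SFRP2-siRNA 1 was here the lowest library of its group. The log2 fold change was 0.14 (SE 0.17) and the adjusted limma p was 0.714. It was 0.25 without SFRP2-siRNA 1, 0.03 without NC 2 and 0.05 without SFRP2-siRNA 2.

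**Figure D2:**
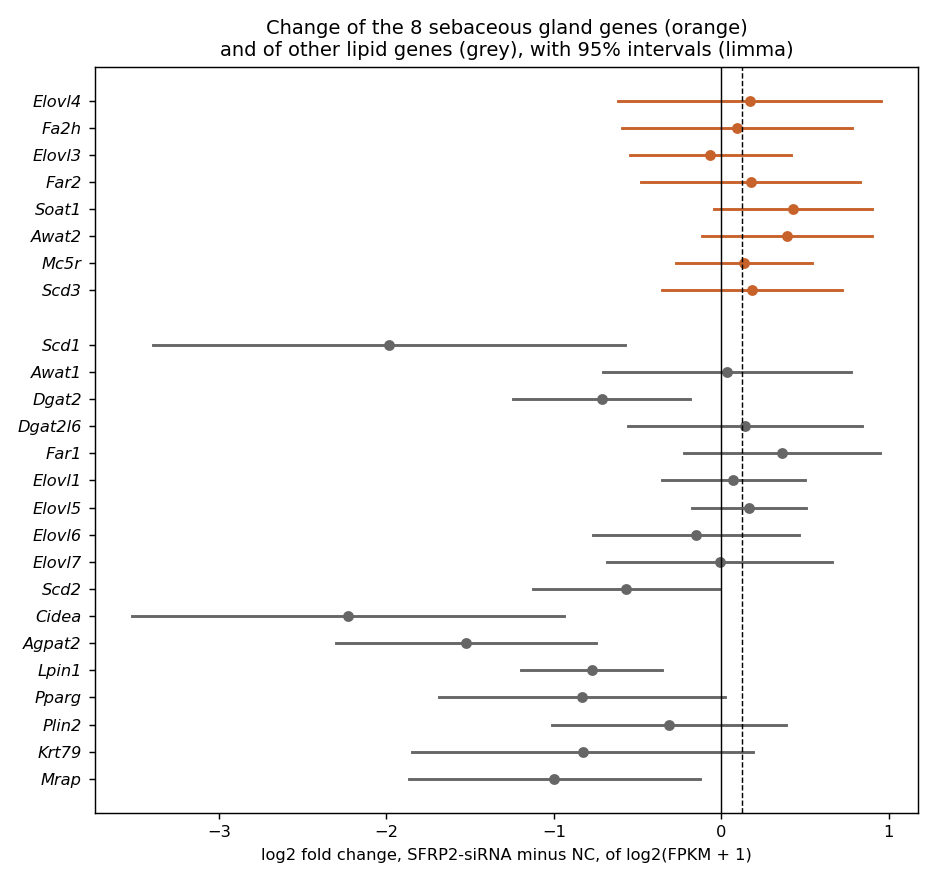
Log2 fold change of log2(FPKM + 1), SFRP2-siRNA minus NC (horizontal axis), with limma 95% intervals (lines) for the 8 sebaceous gland genes (orange) and for other lipid genes (grey). The solid line is 0 and the dashed line is the median of all genes, 0.13. All 8 orange intervals span 0, whereas those of Scd1, Dgat2, Scd2, Cidea, Agpat2, Lpin1 and Mrap lie below 0 before adjustment. The grey genes are a selection, some of them taken for a small p, so their balance of directions follows from the choice. Not drawn are Soat2, Hacd4, Asip and Sptlc2, with intervals above 0, and Fads3, with an interval below 0.

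Per unit of gene length, the levels of the members ranged over 2 orders of size. In mean FPKM over the 6 libraries the order was Elovl4 (162), Fa2h (65.6), Elovl3 (59.6), Far2 (27.5), Soat1 (12.7), Awat2 (3.49), Mc5r (2.60) and Scd3 (1.61). Elovl4 exceeded Fa2h, Elovl3 exceeded Far2, Far2 exceeded Soat1 and Soat1 exceeded Awat2 in all 6 libraries. Fa2h was above Elovl3 in 4 of 6, Awat2 above Mc5r in 4 of 6 and Mc5r above Scd3 in 5 of 6, so these neighbours were not separated beyond the spread of the libraries.

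Most members varied together by library more than by group, while Mc5r did not follow them. SFRP2-siRNA 1 was the highest of the 6 for 6 members, all but Elovl3 and Mc5r. NC 1 was the lowest for 5 members, Awat2, Scd3, Elovl4, Soat1 and Far2. The share of all genes with these extremes was not counted, so they are not read as particular to the members. NC 3 was above the mean of the 6 libraries for 7 members and SFRP2-siRNA 1 likewise for 7, while NC 1 was above it for 0. The median deviation of the members from that mean was -0.36, -0.22 and 0.23 in NC 1, 2 and 3 on the log2 scale. It was 0.50, -0.14 and -0.06 in SFRP2-siRNA 1, 2 and 3. Without SFRP2-siRNA 1, 4 members were higher and 4 lower, and the median change of the members was -0.003. Without NC 3 all 8 were higher, with a median of 0.35, and the groups did not overlap for Soat1, Awat2 and Far2. In that fit 75.8% of all genes were higher and 34.5% did not overlap (29.0% higher and 5.52% lower), so that 3 of 8 members lay near the share of all genes.

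The promoters of Elovl4, Far2, Soat1 and Scd3 are shown because these genes shared NC 1 as their lowest and SFRP2-siRNA 1 as their highest library. Awat2 did so too and is not shown, since the RefSeq table (GRCm38.p6), which matched 5 of the 8 members, holds 2 starts for it. Each sequence runs from 250 bases before to 50 bases after the start, 5′ to 3′ on the strand of the gene. Capitals mark matches, on either strand, to 6 motifs. These were the TATA box, spelled TATAAA, the NF-Y box, spelled CCAAT, the GC box, spelled GGGCGG, the E box, spelled CACGTG, the nuclear receptor half-site, spelled AGGTCA, and the core of the sterol element, spelled TCACNCCAC.
Elovl4, chr9:83806256-83806555, minus strand: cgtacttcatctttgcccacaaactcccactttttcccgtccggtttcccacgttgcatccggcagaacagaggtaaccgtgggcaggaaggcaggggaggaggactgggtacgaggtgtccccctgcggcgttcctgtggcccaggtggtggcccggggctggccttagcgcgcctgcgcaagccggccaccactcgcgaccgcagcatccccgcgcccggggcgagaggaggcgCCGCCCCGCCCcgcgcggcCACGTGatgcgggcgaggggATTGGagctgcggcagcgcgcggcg
Far2, chr6:148047166-148047465, plus strand: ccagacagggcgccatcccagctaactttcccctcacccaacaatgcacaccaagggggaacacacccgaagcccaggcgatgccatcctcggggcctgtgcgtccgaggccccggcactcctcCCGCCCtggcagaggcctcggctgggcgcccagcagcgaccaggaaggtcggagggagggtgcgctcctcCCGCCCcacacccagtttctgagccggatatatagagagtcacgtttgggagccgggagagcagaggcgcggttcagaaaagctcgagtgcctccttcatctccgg
Soat1, chr1:156474279-156474578, minus strand: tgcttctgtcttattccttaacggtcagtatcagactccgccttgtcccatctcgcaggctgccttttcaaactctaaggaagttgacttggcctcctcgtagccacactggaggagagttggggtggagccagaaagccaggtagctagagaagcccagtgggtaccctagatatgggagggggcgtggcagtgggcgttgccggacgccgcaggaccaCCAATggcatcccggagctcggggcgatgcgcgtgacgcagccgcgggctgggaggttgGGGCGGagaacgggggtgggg
Scd3, chr19:44203038-44203337, plus strand: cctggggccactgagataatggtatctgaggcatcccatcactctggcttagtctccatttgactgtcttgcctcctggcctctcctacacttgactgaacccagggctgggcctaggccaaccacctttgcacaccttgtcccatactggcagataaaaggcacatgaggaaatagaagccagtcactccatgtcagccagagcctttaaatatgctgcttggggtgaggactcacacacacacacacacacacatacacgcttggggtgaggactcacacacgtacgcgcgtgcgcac

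These 4 windows, chosen by the library pattern of their genes, differed in composition. Whether composition has any relation to that pattern was not tested. Their GC content was 71.0%, 66.0%, 62.0% and 54.0% for Elovl4, Far2, Soat1 and Scd3, and the median of all promoters was 52.7%. A GC box, a site known to be bound by SP1, occurred 2 times in the Elovl4 window, where the matches overlap by 1 base. It occurred 2 times in that of Far2, 1 time in that of Soat1 and 0 times in that of Scd3. Of 32851 promoters of this length, 35.7% hold a GC box. An NF-Y box was found in the windows of Elovl4 and Soat1 and in 37.4% of all promoters. An E box was found in that of Elovl4 and in 7.15% of all promoters. The TATA box, the half-site and the sterol element core, which occur in 13.6%, 16.3% and 1.24% of all promoters, were not found in these 4 windows. The matches describe letters and not bound sites.

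**Figure D3:**
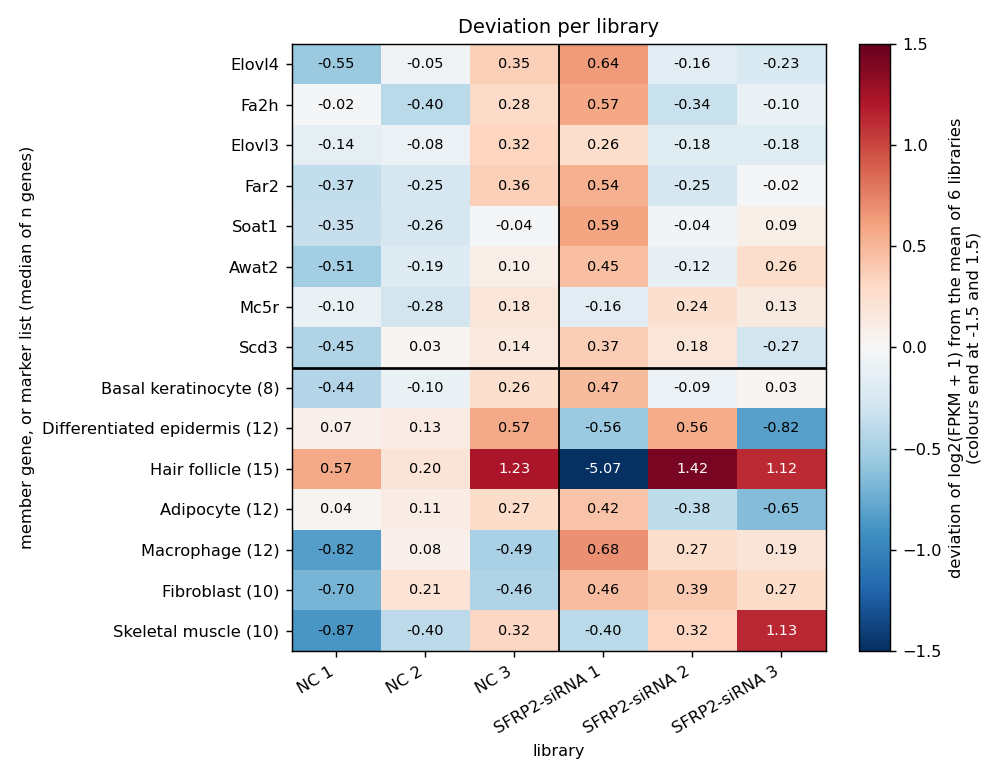
Deviation of log2(FPKM + 1) from the mean of the 6 libraries (colour and printed value), by library (columns) for the 8 sebaceous gland genes and for the median gene of 7 marker lists (rows; number of genes in brackets). SFRP2-siRNA 1 is high for 7 of the 8 members and for basal keratinocyte genes at 0.47, macrophage genes at 0.68, fibroblast genes at 0.46 and adipocyte genes at 0.42. It is low for differentiated epidermis genes at -0.56, skeletal muscle genes at -0.40 and hair follicle genes at -5.07, the last beyond the colour range.

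Since sebaceous glands belong to the hair follicle, the members were set beside the other skin compartments. In SFRP2-siRNA 1 the summed level of the 8 members was 477 FPKM, the highest of all libraries, while Krt27, an inner root sheath keratin picked after its values were seen, had 3.20 FPKM there against 294 to 740 FPKM elsewhere. The library with the lowest hair shaft and root sheath transcripts thus had the highest summed level of the members. Elovl4 (243 FPKM) and Fa2h (95.4 FPKM) made up most of that sum, while Mc5r had 2.18 FPKM. Of the other gland and duct genes, Krt79 (75.6 FPKM), Plet1 (5.13 FPKM), Lrig1 (10.9 FPKM) and Prdm1 (2.69 FPKM) had their lowest value in SFRP2-siRNA 1. Mgst1 (150.9 FPKM), Acsbg1 (31.3 FPKM) and Plin2 (184.5 FPKM) had their highest value there, and the rest lay between. Across the other libraries the members summed to 257, 292 and 406 FPKM in NC 1, 2 and 3 and to 284 and 292 FPKM in SFRP2-siRNA 2 and 3. Basal keratinocyte genes had their lowest sum in NC 1 as well, 2832 FPKM, and their highest in SFRP2-siRNA 1, 6328 FPKM. The same libraries were lowest and highest for the summed macrophage genes (990 and 2497 FPKM) and fibroblast genes (959 and 2385 FPKM), so this order was not particular to keratinocytes. Differentiated epidermis genes did not follow it. They summed to 2345, 1971 and 2879 FPKM in NC 1, 2 and 3 and to 1585, 2655 and 966 FPKM in SFRP2-siRNA 1, 2 and 3. The basal keratinocyte genes had a median log2 fold change of 0.20, with 7 of 8 higher, from -0.004 (Trp63) to 0.36 (Itga6). At an unadjusted p under 0.05 their count was 0 of 8. That median was -0.003 without NC 1 and 0.003 with estimated sample weights. Elovl4 and Fa2h are also epidermal genes, and the part of epidermis or of the other compartments in their values was not tested.

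The other compartments took different courses. Hair follicle genes had a median log2 fold change of -1.36, from -2.26 (Krt28) to -0.17 (Foxn1), and overlapping groups for all 15 genes tested, and without SFRP2-siRNA 1 the median was 0.41. Differentiated epidermis had a median of -0.49, from -0.93 (Krt77) to -0.15 (Ivl), with 12 of 12 below 0. Adipocyte genes had a median of -0.30, from -2.25 (Thrsp) to 0.01 (Retn), with 11 of 12 below 0, and their sum was 3021 to 3878 FPKM in NC and 1540 to 3659 FPKM in the treated group. Without SFRP2-siRNA 1 the adipocyte median was -0.58. Groups did not overlap for 1 differentiated epidermis gene and 1 adipocyte gene, both lower, for 8 of 10 fibroblast genes and 5 of 12 macrophage genes, all higher, and for 0 genes of the other marker lists, beside the 13.9% higher and 3.92% lower of all genes. Fibroblast genes had a median of 0.74, from 0.49 (Thy1) to 0.98 (Col3a1). Of these, 9 of 10 were higher at an unadjusted p under 0.05, beside 6.72% of all genes. Skeletal muscle genes had a median of 0.66, from 0.41 (Myh2) to 1.08 (Actn3), with 0 of 10 at such a p, and it was 0.36 without NC 1 and 1.10 without SFRP2-siRNA 1. Macrophage genes ran from 0.57 (C1qc) to 1.17 (Fcgr1). None of the marker genes was at 0 in all 6 libraries.

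Genes with the closest library pattern were sought among the 8093 named genes whose mean reached 5 FPKM. Likeness was the root mean square difference of centred log2(FPKM + 1) values over the 6 libraries, where 0 is identical. Elovl4 was closest to Krt5, a basal keratinocyte keratin, at 0.09, then to Ces4a at 0.09 and Ghr at 0.11. Far2 was closest to Cers4, a ceramide synthase, at 0.09, then to Krt5 at 0.10 and Pctp at 0.10. Fa2h had Gm3571 at 0.10, Mir145a at 0.11 and Cers4 at 0.11. Soat1 had Gm10177, Cers5 and Entpd2 at 0.05, 0.05 and 0.07. Scd3 was nearest to Tyro3 (0.04), Hfe (0.07) and Degs1 (0.08), and Elovl3 to Nudt17, Mien1 and Trappc4 (0.08 each). For Mc5r the nearest genes were Gm5518 (0.04), Serbp1 (0.05) and Gm9616 (0.05), and for Awat2 they were Nudc-ps1 (0.04), Gm48583 (0.07) and Rbm39 (0.08). These are descriptions over 6 libraries, with no test.

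Awat1, Dgat2l6 and Far1, other genes of the wax ester route, also had overlapping groups. Awat1, the second wax synthase gene, had 13.2, 18.2 and 28.3 FPKM in NC and 26.3, 18.7 and 14.9 FPKM in the SFRP2-siRNA-labelled libraries, a log2 fold change of 0.03 (SE 0.31). Dgat2l6, a related acyltransferase, had a log2 fold change of 0.14, and Far1, the broadly expressed fatty acyl-CoA reductase, 0.36. Their adjusted limma p-values were 0.964, 0.830 and 0.569. Among the elongases Elovl1, Elovl5, Elovl6 and Elovl7 the log2 fold changes lay between -0.15 and 0.17, and the groups overlapped for each. Elovl2 and Scd4 did not pass the filter on low values. Over the whole list of 18 elongation and desaturation genes, 16 were tested, with a median of -0.02, 3 lower and 1 higher at an unadjusted p under 0.05. The lower ones were Scd1, Scd2 and Fads3, and the higher one was Hacd4, named after its value was seen, with log2 fold changes of -1.99, -0.57, -0.44 and 0.64. Groups did not overlap for 3 of the 16, Scd1, Scd2 and Fads3, all lower, beside 3.92% of all genes.

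Several lipid genes that sebocytes share with fat cells had lower values in the SFRP2-siRNA-labelled libraries, without passing the adjusted threshold. Scd1, the main desaturase of skin and fat, had 6830, 4659 and 2980 FPKM in NC. It had 2488, 1009 and 607 FPKM in the SFRP2-siRNA-labelled libraries, and every one of these was below every NC library. Its log2 fold change was -1.99 (SE 0.59, 95% interval -3.40 to -0.58), with an unadjusted limma p of 0.0128, an adjusted p of 0.518 and an exact permutation p of 0.1, the smallest that 3 against 3 libraries allow. Cidea, a lipid droplet gene of sebocytes and thermogenic fat, had a log2 fold change of -2.23, Agpat2 -1.52, Dgat2 -0.72 and Lpin1 -0.78. The last 3 act in triglyceride synthesis. The groups did not overlap for any of these 4 genes, of which all but Dgat2 were named for their small p, so that this count was fixed by the choice. The adjusted limma p was 0.518 for each. In the same ester synthesis list Dgat1 and Mogat2, which also act in triglyceride synthesis, were at 0.08 and 0.02 and Gpam, which starts it, at -0.28, with overlapping groups. Over whole lists, 3 of the 10 ester synthesis genes and 2 of the 13 other gland and duct genes had groups that did not overlap. All of these were lower, beside 3.92% of all genes. The adipocyte list is given above, and the part of fat in these values was not tested.

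**Figure D4:**
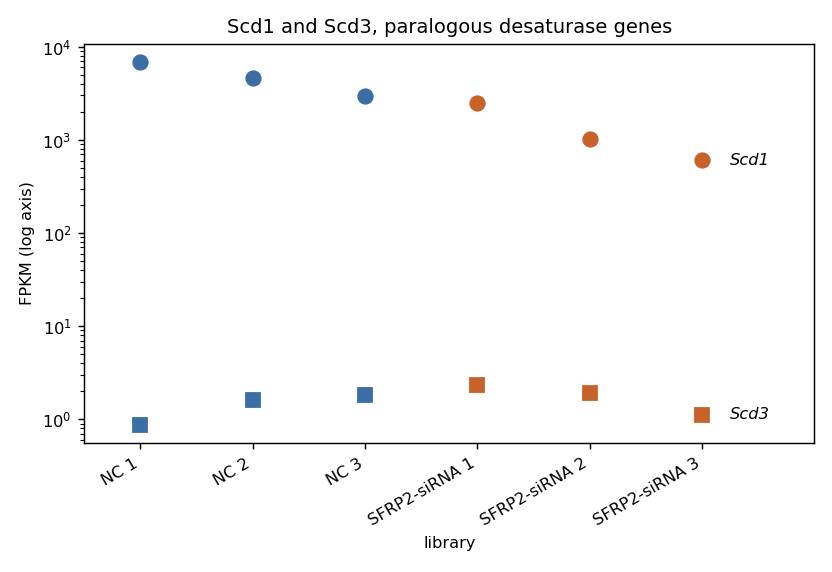
FPKM of Scd1 (circles) and Scd3 (squares) on a log axis, in each NC library (blue) and each library labelled SFRP2-siRNA (orange). Scd1 lies between 607 and 6830 FPKM with all orange circles below the blue ones, and Scd3 lies between 0.87 and 2.32 FPKM with overlapping groups.

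The paralogs Scd1 and Scd3 ordered the libraries differently. Scd1 was 7812, 2861 and 1622 times as abundant as Scd3 per unit of length in NC 1, 2 and 3. In SFRP2-siRNA 1, 2 and 3 this ratio was 1071, 530 and 541. The ratio was formed after both sets of values had been seen and is given without a test. NC 1, with the most Scd1, had the least Scd3.

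Among the 13 other gland and duct genes, 10 had a log2 fold change below 0, with a median of -0.31. Only Scd1 and Cidea had an unadjusted limma p under 0.05. The list is not one of sebocyte lipid genes alone, since it also holds Krt79, Plet1 (-1.20) and Lrig1 (-0.33). Pparg, the nuclear receptor of sebocytes and adipocytes, had a log2 fold change of -0.83 (SE 0.36), with 45.5, 30.8 and 30.3 FPKM in NC and 33.9, 15.6 and 13.1 FPKM in the SFRP2-siRNA-labelled libraries. SFRP2-siRNA 1 lay inside the NC range. Krt79, a keratin of the duct between gland and follicle, was at -0.83 and Plin2, a lipid droplet coat gene, at -0.31, and the groups overlapped for both. The 11 ester synthesis genes, of which 10 were tested, had a median of 0.03, with 3 lower and 1 higher at an unadjusted p under 0.05. The higher one was Soat2, the paralog of Soat1, at 0.94, also named after its value was seen.

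Barrier lipid genes of the epidermis were compared because Elovl4 and Fa2h also serve that route. Of the 16 genes, 6 were higher and 10 lower, with a median of -0.06. Cers3, the ceramide synthase that takes up the products of ELOVL4, had a log2 fold change of -0.25. Abca12, a lipid transporter of lamellar bodies, was at -0.21 and Alox12b, a lipoxygenase, at -0.31. Sptlc2, a subunit of the first enzyme of sphingolipid synthesis, was the only one with an unadjusted p under 0.05, at 0.43, and Ugcg, with the next smallest p, had a log2 fold change of 0.38.

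Only 4 of 10 genes around the melanocortin receptors passed the filter on low values. Pomc, the precursor of the ligands, did not pass it, with at most 0.48 FPKM. Mrap, an accessory protein of melanocortin receptors that is abundant in fat, had a log2 fold change of -0.998 (SE 0.37) with groups that did not overlap. Asip, the agouti antagonist, was at 0.62 on 12 to 97 reads, and Mc1r, the receptor of pigment cells, was at 0.10. The median of the 4 was -0.04. Of the melanocortin receptors Mc1r, Mc3r, Mc4r and Mc5r, only Mc5r and Mc1r passed the filter.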

How the data were processed

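RNA-seq was performed on dpi4 wound tissues of db/db mice in 3 NC libraries and 3 with the SFRP2-siRNA label. The authors deposited 1 table of FPKM values for 33184 Ensembl genes. HISAT2 and featureCounts of Subread are named in the submitters' processing notes, without versions. The genome build and annotation are not given in the sources used here, so no gene coordinates of the files are printed. Symbols came from a gene name table, which matched 32582 genes, and Asip was matched through its listed synonym.

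Low FPKM values are whole multiples of what 1 read is worth. With gene lengths of GENCODE vM21, 98.5% to 98.6% of values under 200 reads were whole within 0.02, and this gave the library totals. Of values from 1 to 20 reads, 64.4% were even, so mates seem to have been counted singly. Counts are therefore not independent molecules.

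Values were analysed as log2(FPKM + 1), which understates changes of low genes. Genes whose mean reached 0.5 FPKM (16005) were fitted with limma 3.58.1 in R 4.3.3 (lmFit and eBayes with an intensity trend), two-sided, with Benjamini-Hochberg adjustment over all of them. A gene was called at an adjusted p under 0.05 and an absolute log2 fold change above 1, the thresholds the study states for its count test. With that test the paper reports called genes in these wounds, more of them lower than higher. The absence of calls here is therefore that of limma on FPKM values. Exact permutation of the libraries, two-sided, was used for single genes and can reach no p below 0.1. Nothing says that the libraries are separate animals, so p-values measure the spread between these libraries. The fit was run on simulated data with independent errors. These held no shift of a whole library such as that of SFRP2-siRNA 1, so that run does not cover it.

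The members, the 5 lists of lipid genes, the 7 marker lists, the naming rule and the tests were chosen with earlier results of these data known. The genes named were the members, lipid genes with a clear role, up to 2 genes a list with the smallest p, and the 3 nearest genes of each member. The marker genes with the highest and lowest change of each list were also named. Hacd4, Soat2, Krt27, Dgat1, Mogat2, Gpam, Plet1, Lrig1, Prdm1, Mgst1 and Acsbg1 were named after their values were seen. Of the genes in the naming rule, 1 is not reported here. Overlapping genes at the loci of Awat2, Scd3, Elovl3, Soat1 and Far2 had at most 5.94 FPKM, and whether strand was used in counting is not stated. In all, 16 alternatives were planned and 2, limma voom on recovered reads, were added after the data were seen.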

Additional observations from a re-analysis of the deposited data

How the results depend on the processing

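No alternative called a member or any other gene at the adjusted threshold. Of 143 fits of single members, 128 kept their direction and 15 reversed, in 4 genes, and the cause was not tested. Elovl3 became 0.029 at equal sums, 0.079 without NC 3, 0.008 without SFRP2-siRNA 2 and 0.007 without SFRP2-siRNA 3. Elovl4 became -0.143 with estimated sample weights, -0.065 without NC 1 and -0.109 without SFRP2-siRNA 1. Far2 became -0.129 with sample weights and -0.050 without SFRP2-siRNA 1. Fa2h became -0.007 when scaled on the less abundant genes, -0.069 by median of ratios, -0.153 with sample weights, -0.084 without NC 2, -0.170 without SFRP2-siRNA 1 and -0.064 in the voom fit with such scaling. Leaving out 1 library gave -0.210 to 0.079 for Elovl3, -0.109 to 0.388 for Elovl4, -0.050 to 0.399 for Far2 and -0.170 to 0.286 for Fa2h.

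The members' median ran from -0.018 (sample weights) to 0.247 (equal sums) with all libraries kept and from -0.003 to 0.345 over the 6 fits that each left out 1 library. Over those 6 fits, 0 to 3 members had groups that did not overlap, beside 23.1% to 34.5% of all genes. The all-gene median was 0.125 as deposited, 0.196 at equal sums and 0.0004 by median of ratios, where 6 of 8 members were higher beside 50.1% of all genes. Relative to it the members were at 0.047, 0.051 and 0.017.

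Genes past an unadjusted p and the fold threshold numbered 143 in the reported fit, 307 with a pseudocount of 0.1, 218 with sample weights, and 345 and 332 in the voom fits without and with median-of-ratios scaling. Leaving out 1 library gave 104 to 349, with 349 without NC 2, 342 without SFRP2-siRNA 1 and 292 without SFRP2-siRNA 3. The elongation and desaturation list moved to -0.169 by median of ratios, -0.128 under quantile normalization and -0.177 in the scaled voom fit. The melanocortin list moved to -0.314 with a pseudocount of 0.1, -0.998 at a filter of 2 FPKM, which left 1 gene, and -0.68 and -0.81 in the voom fits, and ran from -0.302 to 0.209 without 1 library. Without 1 library the medians ran from -0.355 to -0.094 for the other gland and duct genes. They ran from -0.180 to 0.138 for ester synthesis and -0.188 to 0.119 for barrier lipids. Those of the marker lists were -0.578 to -0.097 for adipocyte, -0.895 to -0.259 for differentiated epidermis and -0.003 to 0.400 for basal keratinocyte genes. They were -2.294 to 0.410 for hair follicle, 0.553 to 1.073 for macrophage, 0.557 to 0.960 for fibroblast and 0.279 to 1.103 for skeletal muscle genes. Scd3 has no value at the filter of 2 FPKM. Libraries of the same number had correlations of deviations of -0.05, -0.15 and 0.38. Libraries of unlike number were not compared in this way, so whether they were paired was not tested. The replicate block left the members' median at 0.172, called 0 members and gave 168 genes past the unadjusted p and fold threshold.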
